A study of Mus musculus with 4 samples.

Results

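The granins and the prohormone processing enzymes of pancreatic islets were followed through 10 genes of the 32285 in the count tables, chosen by symbol for their known roles, with earlier results of these data known: the granins Chga, Chgb, Scg2, Scg3 and Vgf, the prohormone convertases Pcsk1 and Pcsk2, their binding partners Pcsk1n and Scg5, and the carboxypeptidase Cpe. Islets came from male mice on a C57BL6/N background that were wild type (WT) or homozygous for a missense knock-in allele of Pax4 (HH), littermates per the study's methods. Both genotypes were taken at 12 weeks of age on standard chow (SCD) and at 16 weeks of age after 4 weeks on a high-fat diet (HFD), so diet and age changed together. The knock-in allele is carried by every cell of the HH animals, each library held the pooled islets of several mice, and each of the 4 groups (WT SCD, HH SCD, WT HFD, HH HFD) was 1 droplet single-cell RNA library.

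Peptide hormones are made as precursors, packed with granins into dense-core secretory granules, and cut there. The convertases PC1/3 (gene Pcsk1) and PC2 (gene Pcsk2) cut at pairs of basic residues and carboxypeptidase E (Cpe) removes the basic residues left behind. PC1/3 and PC2 together turn proinsulin into insulin, while PC2 releases glucagon from proglucagon and PC1/3 releases GLP-1 from the same precursor.

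After filtering on cell quality and removal of predicted doublets, 12404 cells were left, between 1999 (WT HFD) and 4231 (HH HFD) per library. A cell was put in a class by its dominant hormone transcript, which had to hold at least 3% of the unique molecular identifiers (UMIs, counted transcript molecules) of the cell and at least 50% of those of the 4 hormones. There were 7982 cells in the insulin class, 1600 in the glucagon class, 1103 in the somatostatin class and 536 in the pancreatic polypeptide class. In the insulin class the insulin transcripts held 54.3 to 55.8% of all UMIs, and the 6 insulin-class markers summed to 39156 to 61350 counts per 1e6 UMIs (CPM) in the insulin class against 1224 to 2585 CPM in the glucagon and polypeptide classes, although the somatostatin class, which also transcribes Iapp, had 25521 to 29227 CPM. These sums are nearly all Iapp (37479 to 60074 CPM in the insulin class); of the other markers there, Mafa was at 195 to 395 CPM, Slc2a2 at 154 to 302, Ucn3 at 211 to 283 and Nkx6-1 at 188 to 252, each lowest in HH HFD, and G6pc2 at 466 to 660. The acinar and ductal list was at 131 to 209 CPM in the somatostatin class, nearly all of it Cela1 (116 to 184 CPM), with Cpa1 and Prss2 at 2.2 CPM or less, and at 11.1 CPM or less in the other hormone classes; its part in the values of the somatostatin class was not tested. The 5 endothelial markers stayed at or under 8.1 CPM and the 5 immune markers at or under 4.4 CPM in every hormone class. The filter kept 38.3% of the barcodes of WT HFD against 61.6 to 67.8% in the other libraries, and pairs of libraries shared 6 to 11 barcodes. Cells with endothelial markers, which should lack granins, served as the reference for free RNA: the 10 genes together made up 0.0313 to 0.0793% of their UMIs, against 1.42 to 1.86% in the insulin class. In cells with immune markers the share was 0.0288 to 0.0488% in the other libraries and 0.350% in HH SCD, which had 17 such cells. Cells with immune markers were left out of the reference after that value was seen.

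Upstream sequence is shown first because several granin and convertase promoters are known to respond to cAMP, through a response element (CRE) bound by the factor CREB. RefSeq start sites on GRCm38.p6 gave promoters for 8 of the 10 genes, all but Vgf and Cpe. In the 250 bases before the start, 3 of the 8 held the palindromic CRE TGACGTCA, which was found in 1.55% of all 32851 promoters in the table, and 7 of the 8, all but Pcsk1n, held at least the shorter motif TGACG on either strand, which was found in 17.8% of all promoters and lies within the CRE itself. The CRE began 72 bases before the start in Chgb, 68 in Scg2 and 78 in Pcsk1, and Chga held the short motif alone, 44 bases before its start. These distances are from the RefSeq starts: the CRE windows of Chgb and Scg2 lie inside the genes as GENCODE draws them (chr2:132781278-132795079 and chr1:79434669-79440120), and those of Pcsk1 and Chga lie upstream of both. The 30 bases around each are given 5′ to 3′ on the strand of the gene, with the matched motif in capitals. Chgb, Scg2 and Pcsk1 are shown as the genes with the CRE, and Chga because it had the highest level of the 10 in the insulin class. Scg3, Scg5 and Pcsk2, which also held the short motif alone, are not shown, although Scg5 differed between libraries of the insulin class as Chgb and Scg2 did. A link between the motif and the levels was not tested.
Chgb (chr2:132781559-132781588, plus strand): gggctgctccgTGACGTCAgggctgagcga
Scg2 (chr1:79440076-79440105, minus strand): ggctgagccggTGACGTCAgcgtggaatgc
Pcsk1 (chr13:75089768-75089797, plus strand): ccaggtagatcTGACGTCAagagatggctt
Chga (chr12:102554885-102554914, plus strand): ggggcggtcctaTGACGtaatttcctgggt
Pcsk1 held a further short motif 50 bases before the start, and both stand in the 219 bases that lie upstream of both the RefSeq and the GENCODE start of the gene (chr13:75089607-75089825, plus strand), again with matches in capitals.
Pcsk1 upstream: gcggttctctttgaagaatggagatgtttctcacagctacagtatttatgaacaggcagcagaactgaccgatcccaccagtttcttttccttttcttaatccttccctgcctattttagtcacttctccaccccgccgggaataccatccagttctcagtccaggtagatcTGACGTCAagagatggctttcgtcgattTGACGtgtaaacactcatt
TATAAA, found in 7.59% of all promoters, was in none of the 8. These are matches of letters and not measured binding sites.

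Across the 4 hormone classes the 10 genes did not vary as a block. Pcsk1 was highest in the insulin class and Chgb was highest in the somatostatin class, Pcsk2 and Pcsk1n were highest in the glucagon class, and Scg5 was highest in the polypeptide class. UMIs summed per library and class were compared with the insulin class by the edgeR quasi-likelihood test with the library as a block, on TMM scaling, which sets the bulk of genes level between classes. In the glucagon class 3 of the 10 genes were called higher and 5 lower at an adjusted p under 0.05, where 29.4% and 31.7% of all 11717 genes tested were called in those directions. In the somatostatin class 1 was higher and 7 lower (background 29.8% and 30.7%), and in the polypeptide class 2 were higher and 6 lower (background 24.7% and 28.2%). The median log2 ratio of the 10 was -0.39, -0.77 and -0.59 in the 3 contrasts, beside -0.01, -0.004 and -0.03 over all genes tested. The levels that follow are TMM-scaled CPM, in the order WT SCD, HH SCD, WT HFD and HH HFD.

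**Figure D1:**
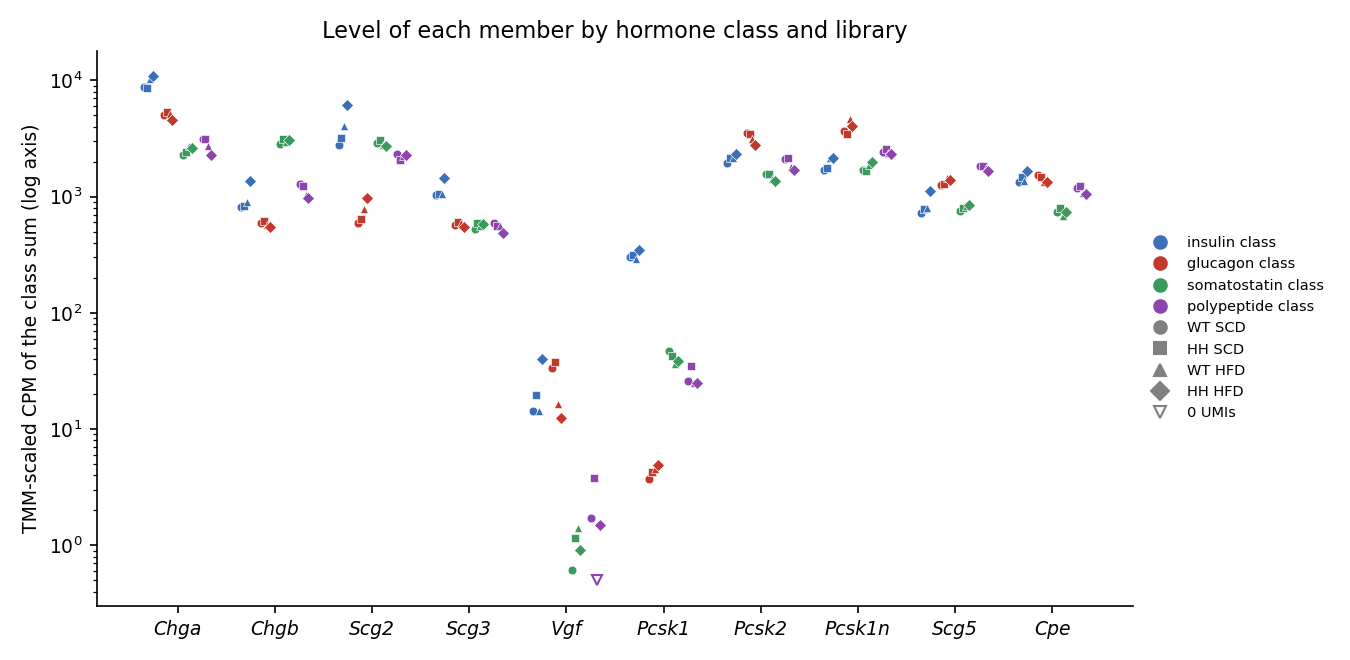
TMM-scaled CPM (log axis) of each of the 10 genes in the 4 hormone classes, with 1 point per library, colour for the class and shape for the library. Pcsk1 lies between 288 and 346 in the insulin class and under 5 in the glucagon class, and Chgb is highest in the somatostatin class (2855 to 3133). An open triangle marks the only sum with 0 UMIs, Vgf in the polypeptide class of WT HFD.

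Chga (chromosome 12) encodes chromogranin A, a granule core protein cut to peptides such as pancreastatin. Its level in the insulin class was 8765, 8515, 10178 and 10909. The glucagon class had 4533 to 5394, the polypeptide class 2288 to 3151 and the somatostatin class 2290 to 2751. All libraries of the insulin class lay above all libraries of the other classes, and the log2 ratio to the insulin class was -0.93 ± 0.11 (SE) in the glucagon class, -1.77 ± 0.11 in the polypeptide class and -1.93 ± 0.11 in the somatostatin class (edgeR adjusted p = 6.64e-09, 1.06e-14 and 7.36e-16). The last 2 classes overlapped each other.

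Chgb (chromosome 2), chromogranin B, went the other way in the somatostatin class. It stood there at 2855, 3133, 2950 and 3044, against 813, 835, 895 and 1358 in the insulin class, a log2 ratio of 1.63 ± 0.14 (edgeR adjusted p = 8.75e-08). The glucagon class was lowest with 551 to 617 (log2 ratio -0.73 ± 0.14, edgeR adjusted p = 0.000355). In the polypeptide class Chgb ranged from 973 to 1297 and was not called (log2 ratio 0.23 ± 0.14, edgeR adjusted p = 0.191); without HH HFD, whose insulin class was the highest, that ratio was 0.49 and passed (edgeR adjusted p = 1.94e-06).

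Scg2 (chromosome 1) encodes secretogranin II, the precursor of secretoneurin. The insulin class had 2798, 3202, 4052 and 6155. The glucagon class was far lower, at 591, 646, 780 and 970, with a log2 ratio of -2.42 ± 0.18 (edgeR adjusted p = 6.04e-08). Levels in the somatostatin class (2737 to 3046) and in the polypeptide class (2065 to 2320) varied little over libraries; the first spanned the lowest insulin-class level and the second lay below it. The ratio for the somatostatin class, -0.44 ± 0.17 (edgeR adjusted p = 0.0382), was lost without HH HFD (-0.19, edgeR adjusted p = 0.126) and without WT HFD (-0.40, edgeR adjusted p = 0.138), and also with all libraries under other settings: DESeq2 size factors (adjusted p = 0.0504 in the edgeR fit), library sizes without hormone and mitochondrial genes (0.0629) and 80% hormone dominance (0.0675). That of the polypeptide class was -0.81 ± 0.17 (edgeR adjusted p = 0.00137).

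Scg3 (chromosome 9), secretogranin III, which anchors chromogranin A to the cholesterol-rich granule membrane, lay at 1026 to 1432 in the insulin class and at 484 to 610 in every sum of the other classes, and its log2 ratios were -0.97, -1.01 and -1.05 in the glucagon, somatostatin and polypeptide classes (edgeR adjusted p at most 1.77e-10). On plain library sizes it was not called in the somatostatin class (-0.03, edgeR adjusted p = 0.676).

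Vgf (chromosome 5), the precursor of several neuroendocrine peptides, was the scarcest of the 10 in every class but the glucagon class, where Pcsk1 was lower. The insulin class had 14.4, 19.8, 14.5 and 40.4, and the glucagon class 33.5, 37.6, 16.6 and 12.6, so the order of these classes was not the same in every library. The log2 ratio of glucagon to insulin was 0.26 ± 0.38 (edgeR adjusted p = 0.590), and without HH HFD it was 0.84 (edgeR adjusted p = 0.000211). The somatostatin class had 3 to 5 UMIs per library and the polypeptide class 0 to 8, called lower than the insulin class with edgeR adjusted p = 0.00095 and 0.00687.

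Pcsk1 (chromosome 13) separated all 4 classes. The insulin class had 303, 316, 288 and 346, the somatostatin class 46.7, 42.8, 36.0 and 38.5, the polypeptide class 26.2, 35.0, 25.1 and 24.9, and the glucagon class 3.76, 4.26, 4.51 and 4.89. No library of a class overlapped with those of another class. Relative to the insulin class the log2 ratio was -2.93 ± 0.08 in the somatostatin class, -3.50 ± 0.10 in the polypeptide class and -6.17 ± 0.11 in the glucagon class (edgeR adjusted p = 2.9e-23, 2.56e-23 and 2.64e-28). The 21 to 26 UMIs per library of the glucagon class, 4.18 to 5.22 CPM without TMM scaling, lay in the range of the cells with endothelial markers (3.56 to 18.3 CPM), which is the level of free RNA.

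Pcsk2 (chromosome 2) had a narrow range and a different order. It was highest in the glucagon class with 3559, 3464, 3123 and 2763, against 1945, 2153, 2137 and 2347 in the insulin class (log2 ratio 0.58 ± 0.09, edgeR adjusted p = 1.52e-06). The somatostatin class had 1361 to 1560 (log2 ratio -0.55 ± 0.09, edgeR adjusted p = 3.77e-06), and the polypeptide class had 1685 to 2147, overlapping the insulin class (-0.16 ± 0.09, edgeR adjusted p = 0.133); it was called lower with library sizes without hormone and mitochondrial genes (-0.22, edgeR adjusted p = 0.00654) and with no filter on low counts (-0.24, edgeR adjusted p = 0.0148).

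Pcsk1n (chromosome X) encodes proSAAS, which binds and inhibits PC1/3. The glucagon class, which had the least Pcsk1, had the most Pcsk1n, at 3668, 3430, 4625 and 4027 against 1700, 1746, 2169 and 2156 of the insulin class, a log2 ratio of 1.02 ± 0.09 (edgeR adjusted p = 1.82e-11). The polypeptide class, at 2316 to 2544, was also higher (0.33 ± 0.09, edgeR adjusted p = 0.00238; 0.0662 without HH SCD), and the somatostatin class, at 1667 to 1967, overlapped the insulin class (-0.11 ± 0.09, edgeR adjusted p = 0.302).

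Scg5 (chromosome 2) encodes 7B2, a chaperone that PC2 needs to become active. Its level in the insulin class was 722, 779, 799 and 1111, in the glucagon class 1248 to 1442 and in the polypeptide class 1655 to 1838. Both were called higher (0.66 ± 0.09 and 1.07 ± 0.09, edgeR adjusted p = 2.33e-07 and 2.86e-11), and the somatostatin class, at 748 to 845, was not called (-0.08 ± 0.09, edgeR adjusted p = 0.492).

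Cpe (chromosome 8) lay at 1340 to 1670 in the insulin class and 1324 to 1531 in the glucagon class (-0.04 ± 0.08, edgeR adjusted p = 0.659). With library sizes without hormone and mitochondrial genes it was called lower there (-0.19, edgeR adjusted p = 0.00989). It was called lower in the polypeptide class (1045 to 1227; -0.37 ± 0.08, edgeR adjusted p = 0.000271) and the somatostatin class (687 to 805; -0.98 ± 0.08, edgeR adjusted p = 6.87e-12).

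These directions are relative to the bulk of genes of a class. On plain library sizes, where the insulin transcripts dilute every other gene of the insulin class, the median of all genes stood 0.58, 0.97 and 0.30 above 0 on the log2 scale in the glucagon, somatostatin and polypeptide contrasts. Scg2 and Pcsk2 were then called higher in the somatostatin class (0.54 and 0.43), and so were Scg5 and Pcsk1n (0.90 and 0.87). Cpe was higher in the glucagon class (0.55) and Pcsk2 in the polypeptide class (0.17). Chgb gained a call in the polypeptide class (0.56, edgeR adjusted p = 0.0027). Calls lost on that scale were those of Chgb in the glucagon class (-0.13, edgeR adjusted p = 0.354), Scg3 and Cpe in the somatostatin class (-0.03 and -0.01, edgeR adjusted p = 0.676 and 0.92) and Cpe in the polypeptide class (-0.04, edgeR adjusted p = 0.574). Pcsk1 and Chga were called lower in all 3 contrasts on both scales.

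Ratios of 2 genes within the same sum do not depend on scaling and set the convertases side by side. Pcsk1 gave 0.156, 0.147, 0.135 and 0.148 UMIs per UMI of Pcsk2 in the insulin class, 0.0254 to 0.0300 in the somatostatin class, 0.0124 to 0.0163 in the polypeptide class and 0.00106 to 0.00177 in the glucagon class. On the log2 scale the means over the 4 libraries were -2.78 ± 0.09 (SD, n = 4), -5.17 ± 0.10, -6.13 ± 0.17 and -9.53 ± 0.32, and the libraries of different classes did not overlap. The glucagon class value rests on Pcsk1 counts at the level of free RNA. With the free RNA profile subtracted the mean was -5.47 in the somatostatin class and -6.67 in the polypeptide class. In the glucagon class the subtraction left no Pcsk1 UMIs. The value of -12.45 there is set by the floor of 3 counts and is not a measured ratio. Pcsk1n over Pcsk1 took the reverse order, with means of 2.63 in the insulin class, 5.46 in the somatostatin class, 6.46 in the polypeptide class and 9.82 in the glucagon class. The last of these again rests on Pcsk1 counts at the level of free RNA. Chga over Chgb was 3.01 to 3.51 in the insulin class and 3.04 to 3.18 in the glucagon class, 1.23 to 1.4 in the polypeptide class and -0.36 to -0.10 in the somatostatin class, the only one with more Chgb than Chga UMIs. Counts were taken at the 3′ end of transcripts, so such a ratio compares molecules counted and not protein.

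**Figure D2:**
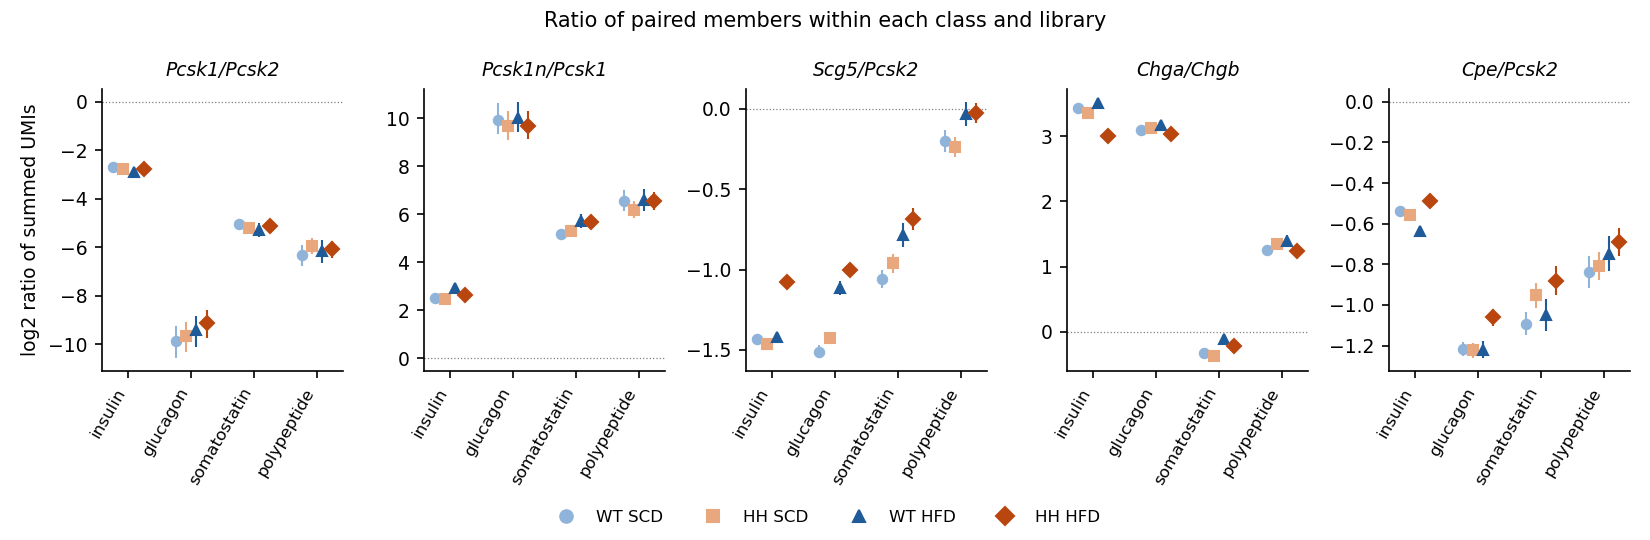
Log2 ratio of summed UMIs of 5 pairs of genes in each class, with 1 point per library and exact 95% binomial intervals that cover counting error only; each panel has its own axis. Pcsk1 over Pcsk2 falls from about -2.78 in the insulin class to about -9.53 in the glucagon class, where Pcsk1 is at the level of free RNA. With that profile subtracted the glucagon class value is -12.45, which is set by the floor of 3 counts. Scg5 over Pcsk2 is higher in the HFD than in the SCD libraries of the glucagon, somatostatin and polypeptide classes.

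Scg5 over Pcsk2, the chaperone against its enzyme, also separated the diets. In the glucagon class it was -1.51 and -1.42 in WT SCD and HH SCD against -1.11 and -1.0 in WT HFD and HH HFD. The somatostatin class had -1.06 and -0.96 under SCD against -0.79 and -0.69 under HFD, and the polypeptide class -0.20 and -0.24 against -0.03 and -0.03. Counting intervals of SCD and HFD did not overlap in any of these classes. In the insulin class WT HFD (-1.42) lay with the SCD libraries (-1.43 and -1.47), and HH HFD alone was higher at -1.08. With 2 libraries per diet no test was made, and age and diet cannot be told apart.

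Shares of cells with at least 1 UMI were compared after thinning each cell to 3000 UMIs. Pcsk1 was found in 44.3 to 47.6% of the insulin class, 11.3 to 16.2% of the somatostatin class and 3.96 to 12.5% of the polypeptide class. In the glucagon class it was found in 0.661 to 1.76% of cells, below the 2.30 to 3.45% of cells with endothelial markers, so it could not be told from free RNA. Without thinning these shares were 95.8 to 97.2%, 30.3 to 43.0%, 23.8 to 36.1%, 5.07 to 6.84% and 2.30 to 8.28%, in the same order of classes. Median depths before thinning were 10015 to 16021 UMIs in the glucagon class and 5768 to 7079 in the cells with endothelial markers. Vgf was found in 3.31% (95% Clopper-Pearson interval 2.57 to 4.19%) of the insulin class of WT SCD and in 6.91% (6.01 to 7.91%) of that of HH HFD, with 4.03% in HH SCD and 3.16% in WT HFD. In the glucagon class the order was different, with 7.54 and 10.4% in WT SCD and HH SCD and 1.80 and 4.04% in WT HFD and HH HFD, and at most 1.15% of the cells with endothelial markers held a Vgf UMI. In CPM the glucagon class had 37.2, 41.0, 17.8 and 13.5, also higher under SCD than under HFD, but with WT HFD above HH HFD, so no order is read between those libraries. Without thinning Vgf was found in 21.2, 25.1, 21.8 and 36.0% of the insulin class, 28.6, 28.4, 17.6 and 9.79% of the glucagon class and 1.03 to 1.68% of the cells with endothelial markers. Chga was found in 95.8% or more of the cells of every hormone class, but also in 29.9 to 48.4% of cells with endothelial markers.

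**Figure D3:**
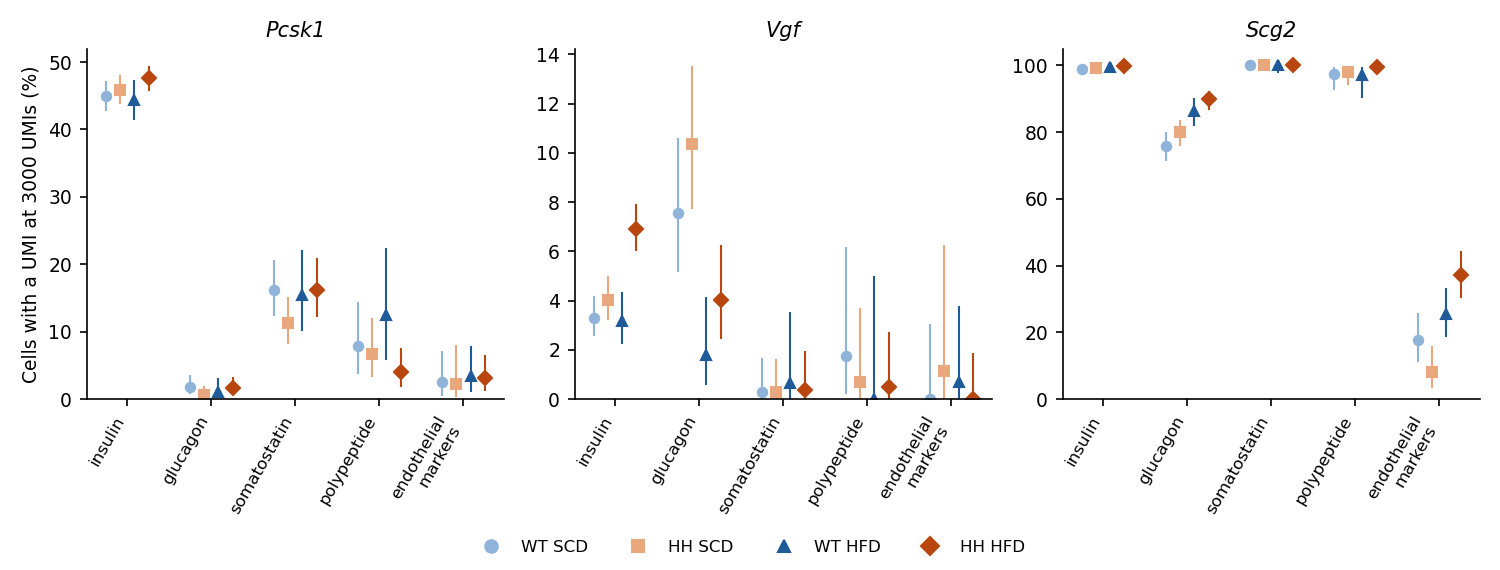
Percentage of cells with at least 1 UMI of Pcsk1, Vgf and Scg2 after thinning to 3000 UMIs a cell, in the 4 hormone classes and in cells with endothelial markers as the reference for free RNA; points are libraries and bars exact 95% intervals. Pcsk1 in the glucagon class (0.661 to 1.76%) is below the reference, and Vgf is highest in the insulin class in HH HFD and in the glucagon class under SCD.

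HH and WT were compared within the insulin class of each diet, where genotype cannot be told apart from other differences between single libraries. With 1 library per group there was no test; ratios are of plain CPM of the class sums, their intervals cover counting error only, and a log2 ratio of 0.32 or more in either direction, called the fold here, was counted among genes with a mean of at least 50 CPM, which leaves out Vgf. Under SCD none of the 9 remaining genes passed that fold (background 1.5% of 1397 genes), and their log2 ratios ran from -0.14 for Chga to 0.10 for Scg2. Under HFD 3 of 9 passed it, all higher in HH (background 17.3% of 1299 genes in either direction): Scg2, Chgb and Scg5. The median of the 9 was -0.04 under SCD and 0.14 under HFD, beside -0.04 and -0.03 over all genes counted.

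Scg2 was at 2119, 2265, 3021 and 4149 CPM in the 4 libraries, in the order used above, with HFD above SCD in both genotypes and HH HFD the highest. The log2 ratio of HH over WT was 0.10 (interval 0.08 to 0.11) under SCD and 0.46 (0.45 to 0.47) under HFD. Chgb was at 616, 591 and 667 CPM in WT SCD, HH SCD and WT HFD, and at 916 CPM in HH HFD, which stood apart from the others. Its log2 ratio of HH over WT was 0.46 (0.43 to 0.48) under HFD and -0.06 (-0.08 to -0.04) under SCD. Scg5 had the same pattern at a smaller size, with 547, 551, 596 and 749 CPM and a log2 ratio of 0.33 (0.31 to 0.35) under HFD, just past the fold; it was 0.30 with the looser filter on cells and 0.31 as a mean over cells, both short of it.

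Scg3 was just under the fold, at 777, 745, 792 and 966 CPM with a log2 ratio of 0.29 (0.26 to 0.31) under HFD. The enzymes themselves differed less between the genotypes. Pcsk1 was at 229, 223, 215 and 233 CPM, Pcsk2 at 1473, 1523, 1594 and 1582 CPM, and Cpe at 1015, 1036, 1024 and 1126 CPM, with log2 ratios of HH over WT under HFD of 0.12, -0.01 and 0.14. Chga, at 6636, 6022, 7588 and 7353 CPM, and Pcsk1n, at 1287, 1235, 1617 and 1453 CPM, were lower in HH under both diets on plain CPM. Small ratios such as these depended on the scaling. With the TMM factors of the class comparison, which put the median of all genes at 0.06 under SCD and 0.11 under HFD, Chga was at 0.10 under HFD, Pcsk2 at 0.13 under HFD, and Chgb, Scg3, Pcsk1 and Pcsk1n at 0.04, 0.04, 0.06 and 0.04 under SCD, all of the opposite sign to plain CPM. On that scale Scg2, Chgb and Scg5 were at 0.60, 0.60 and 0.48 under HFD, and Scg3, at 0.43, also passed the fold (background 23.3% of genes in either direction). Vgf, under the minimum for the count, was at 10.9, 14.0 and 10.8 CPM in WT SCD, HH SCD and WT HFD and at 27.2 CPM in HH HFD, from 366 to 1920 UMIs per library. Its log2 ratio of HH over WT was 0.37 (0.21 to 0.52) under SCD and 1.34 (1.18 to 1.5) under HFD.

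**Figure D4:**
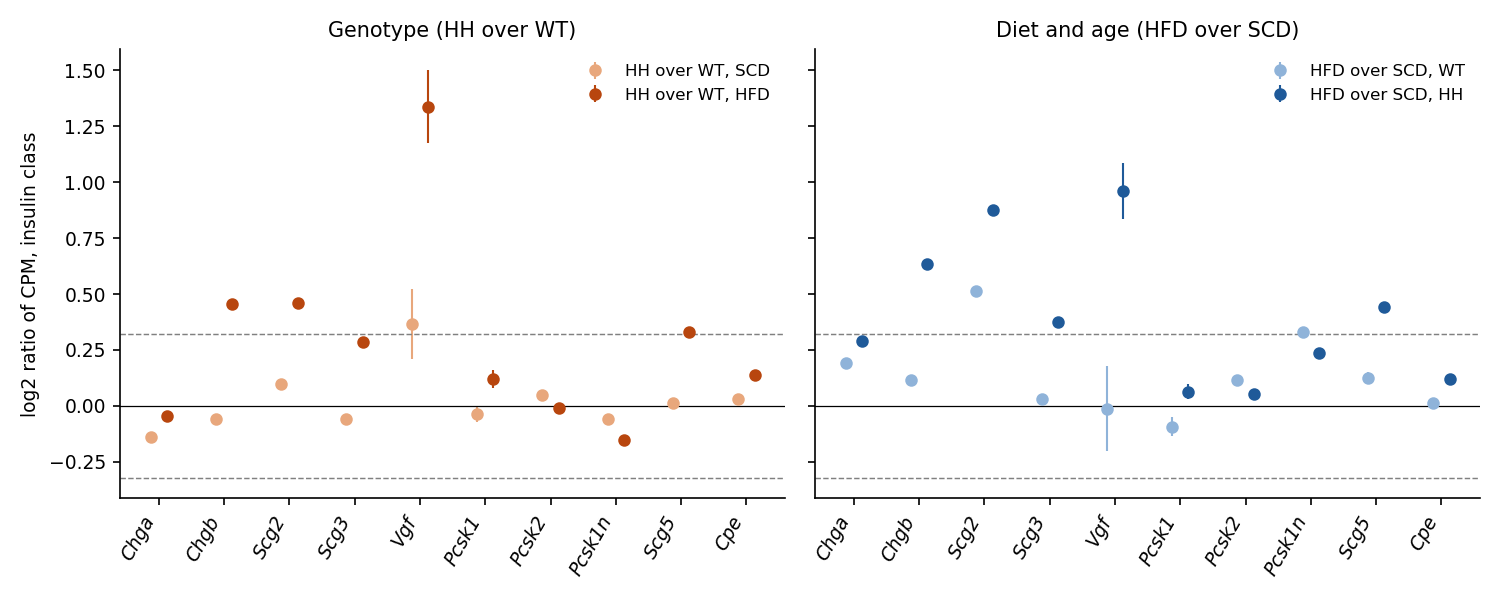
Log2 ratio of CPM of the 10 genes in the insulin class, HH over WT within each diet (left) and HFD over SCD within each genotype (right), with exact 95% counting intervals; dashed lines mark 0.32 in either direction. Scg2 (0.46), Chgb (0.46) and Scg5 (0.33) pass the line in HH over WT under HFD, none of the 9 counted genes does under SCD, and Vgf, under 50 CPM, is at 1.34 under HFD.

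HFD over SCD uses the same 4 libraries as the comparison of genotypes. In WT 2 of 9 genes passed the fold upward, Scg2 with 0.51 and Pcsk1n with 0.33 (background 17.7% of 1392 genes in either direction); Pcsk1n fell short of the fold with the looser filter on cells (0.28) and with doublets kept (0.31). In HH 4 of 9 did, Scg2 with 0.87, Chgb with 0.63, Scg5 with 0.44 and Scg3 with 0.37 (background 26.9% of 1302 genes), and Vgf was at 0.96. Pcsk1n was at 0.23 in HH, and its difference between the genotypes was not tested. Pcsk1 was at -0.09 in WT and 0.06 in HH, Pcsk2 at 0.11 and 0.06, Chga at 0.19 and 0.29, and Cpe at 0.01 and 0.12.

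In the insulin class of HH HFD other measures differed together with the granins. Iapp, the amylin precursor, was at 60074 CPM against 37479 to 41582 CPM in the other libraries, while Mafa was at 195 CPM against 311 to 395 CPM and Slc2a2 at 154 CPM against 269 to 302 CPM. Of the markers of other hormone classes, the glucagon list was at 564 CPM against 381 to 403 CPM, mostly from Tmem27 (359 against 260 to 308 CPM) and Gc. The polypeptide list was at 346 CPM against 199 to 225 CPM, nearly all of it Pyy (330 against 186 to 211 CPM), and the somatostatin list, at 14.5 CPM against 11.1 to 15.5 CPM, was not higher. The share of free RNA estimated in the sums was 3.55% in HH HFD and 1.37 to 2.41% in the others. With the free RNA profile subtracted the log2 ratios of HH over WT under HFD were 0.46 for Scg2, 0.46 for Chgb and 0.33 for Scg5. That profile is the sum of all barcodes of a library, and the insulin class held 70491505 of the 104810105 UMIs of HH HFD. Its subtraction could therefore move these ratios little and does not test for free RNA. Median UMIs per cell were 24180 in HH HFD and 26185 to 29762 in the others. What part these measures have in the differences was not tested.

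The distribution over single cells was described for the granins that differed. Thinned to 3000 UMIs, the median insulin-class cell held 6, 6, 8 and 11 UMIs of Scg2, in the order of libraries above, and the 90th percentile was 11, 11, 15 and 21. Cells with 16 or more Scg2 UMIs, a limit chosen after the distribution was seen, made up 0.939%, 1.66%, 8.17% and 23.1% of the class. The variance over the mean (Fano factor, 1 for counting noise alone) was 1.65, 1.77, 2.17 and 3.6. The 10th percentile, 2, 3, 4 and 5, was higher in the same order, and the 1% of cells with most Scg2 held 2.81 to 3.7% of its UMIs in every library.

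For Chgb the line of HH HFD also lay above those of the other libraries from the lowest counts on. Cells with at least 1 UMI of Chgb made up 85.2% of the class in HH HFD against 79.2 to 81.3% elsewhere, and cells with 3 or more 40.6% against 25.6 to 29.2%. Cells with 8 or more UMIs made up 4.2% (95% Clopper-Pearson interval 3.49 to 5.0%) in HH HFD and 0.907 to 1.09% elsewhere. The limits of 3 and 8 were likewise chosen after the distribution was seen. Its Fano factor was 3.16 in HH HFD and 1.59 to 1.76 in the other libraries. The 1% of cells with the most Chgb held 7.51% of its UMIs without thinning in HH HFD and 3.6 to 4.33% elsewhere. Scg5 stayed close to counting noise, with Fano factors of 1.22 to 1.29, and Chga, with 8.22 in HH HFD, was as uneven in WT HFD (8.84) and less so under SCD (6.18 and 6.47).

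**Figure D5:**
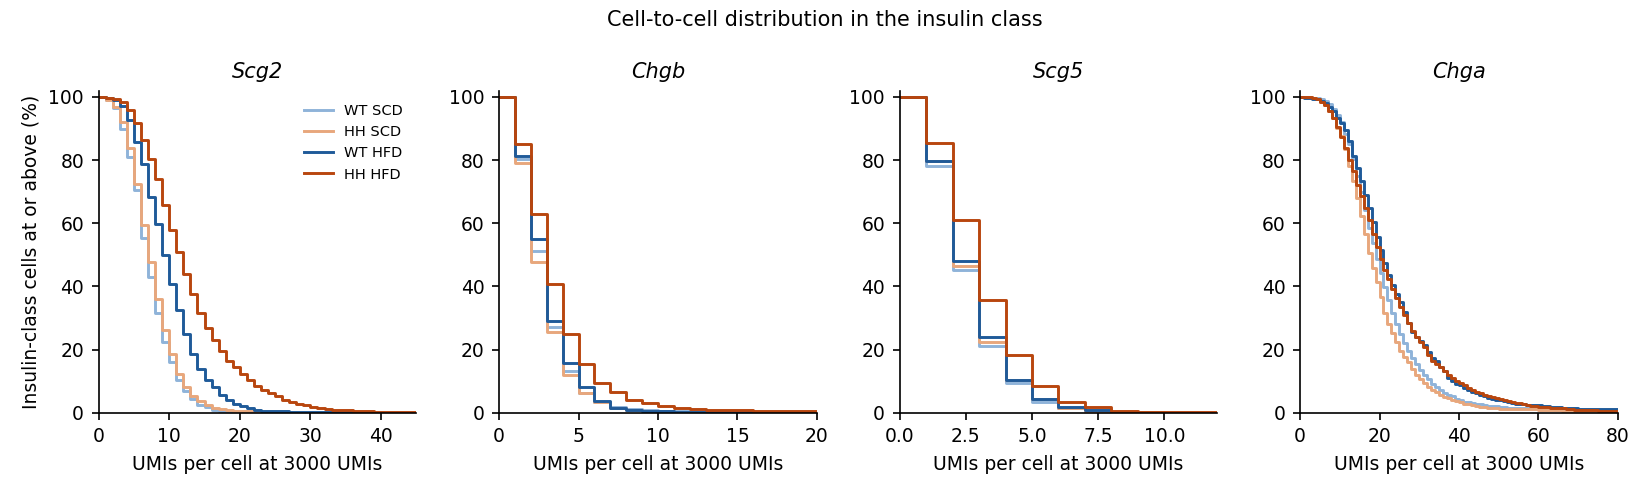
Percentage of insulin-class cells at or above a given number of UMIs of Scg2, Chgb, Scg5 and Chga, each cell thinned to 3000 UMIs, with 1 line per library. The Scg2 line of HH HFD lies to the right over its length (23.1% of cells at 16 or more), and so does that of Chgb (40.6% of cells at 3 or more, 4.2% at 8 or more).

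In the other classes none of the counted genes passed the fold between HH and WT in the glucagon class (8 genes, background 2.34% under SCD and 3.39% under HFD) or in the somatostatin class (9 genes, background 3.38% and 7.47%). The exception was Pcsk1 in the somatostatin class under SCD, at -0.35 when 80% hormone dominance was asked for (background 6.61% there). The nearest to the fold in the glucagon class was Scg2 under HFD, at 836 (WT) and 1038 (HH) CPM, a log2 ratio of 0.31 that became 0.33 as a mean over cells and 0.25 with the free RNA profile subtracted. Scg2 was also found in more cells with endothelial markers in these libraries, 25.5 and 37.1% in WT HFD and HH HFD against 17.6 and 8.05% in WT SCD and HH SCD (60.7 and 53.1% against 39.5 and 20.7% without thinning). In CPM the order was different, at 160 and 40.9 (WT SCD and HH SCD) against 133 and 172 (WT HFD and HH HFD), so no order is read from the shares. Under SCD Scg2 was at 657 (WT) and 704 (HH) CPM in the glucagon class. Of the 8 counted genes there, Scg2 alone had a log2 ratio above 0 under HFD, with a median of -0.08 beside 0.01 over all genes counted. Pcsk1n was at -0.20 (interval -0.23 to -0.18), Chga at -0.19 (-0.22 to -0.17) and Pcsk2 at -0.18 (-0.21 to -0.15). In that class 5 of the 8 were above 0 under SCD, with a median of 0.03. In the somatostatin class Chgb was at 3999, 4303, 4300 and 4343 CPM and Scg2 at 4060, 4184, 4029 and 3904 CPM, so neither showed the step seen in the insulin class of HH HFD; that difference between classes was not tested. The polypeptide class, of 72 to 202 cells per library, had Chgb at 1103, 1067, 1008 and 911 CPM and Scg2 at 1973, 1770, 2199 and 2139 CPM. There the log2 ratios of the 8 counted genes under HFD were all below 0 on plain CPM, with a median of -0.15 beside -0.05 over all genes counted. That of Scg2 was -0.04 with an interval that included 0 (-0.10 to 0.02), and its TMM-scaled levels were 2248 (WT) and 2283 (HH) CPM, the opposite order. Chga was at -0.31 (interval -0.37 to -0.25) and Scg3 at -0.28 (-0.40 to -0.16), close to the fold, while under SCD 4 of the 8 were above 0 and their median was 0.02.

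The 3 lists of neighbouring genes give the surroundings of the 10. Of 13 other processing enzymes 5 were higher and 6 lower in the glucagon class than in the insulin class, 4 and 4 in the somatostatin class and 5 and 5 in the polypeptide class. Over all genes tested 29.4% and 31.7%, 29.8% and 30.7%, and 24.7% and 28.2% were called higher and lower in these contrasts. The largest ratios were those of Qpct, a glutaminyl cyclase, at 2.38 in the polypeptide class (edgeR adjusted p = 3.46e-08), and Ece1, an endothelin-converting protease, at -1.07 in the glucagon class (edgeR adjusted p = 1.55e-13) and -1.33 in the polypeptide class (edgeR adjusted p = 1.9e-14). Qpct was also called higher in the glucagon class (0.84, edgeR adjusted p = 0.00984) but not in the somatostatin class (-0.18, edgeR adjusted p = 0.684). Ece1 was not called in the somatostatin class either (0.04, edgeR adjusted p = 0.642). The other glutaminyl cyclase, Qpctl, was lower in all 3 classes (-0.86, -1.06 and -1.02 in the glucagon, somatostatin and polypeptide classes), and so was Pcsk4, a convertase known from germ cells (-1.06, -0.89 and -0.80). In the insulin class Pam, which amidates peptides, was the only 1 of 5 counted genes past the fold (background 17.3%) in HH over WT under HFD, at 175 (WT) and 258 (HH) CPM (log2 ratio 0.56, interval 0.52 to 0.60), and none was under SCD.

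Of 20 genes of granule biogenesis and membrane 13, 15 and 10 were lower than in the insulin class in the glucagon, somatostatin and polypeptide classes and 4, 2 and 3 higher, where 31.7%, 30.7% and 28.2% of all genes tested were lower and 29.4%, 29.8% and 24.7% higher. Sytl4 (granuphilin, which docks insulin granules) had log2 ratios of -6.06, -6.24 and -5.92, and Slc30a8, the granule zinc transporter, was at -0.26 in the glucagon class, -5.80 in the somatostatin class and -2.99 in the polypeptide class. Rab3d, a small GTPase of secretory granules, was lower in all 3 (-2.49, -2.2 and -1.63), and so was Cyb561, the granule cytochrome b561 (-1.27, -1.71 and -1.47). Cadps, which primes granules for release, was at -4.89 in the somatostatin class and higher in the glucagon and polypeptide classes (0.42 and 0.32). Resp18, an endocrine-specific luminal protein, was higher in all 3 (1.54, 1.36 and 1.39). Within the insulin class under HFD, 1 of 10 counted genes was past the fold upward in HH (background 17.3% in either direction), Ptprn (155 to 204 CPM, log2 ratio 0.39), and 1 was lower, Slc30a8 (475 to 338 CPM, -0.49).

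Of 12 other prohormones 4 were abundant enough to be tested between classes, with Pyy higher in all 3 classes than in the insulin class (log2 5.70 to 8.62) and Iapp and Nucb2 lower in all 3 (-5.26 to -1.7 and -2.52 to -1.77). Npy was lower in the glucagon class (-6.05, edgeR adjusted p = 0.000196) and the polypeptide class (-6.15, edgeR adjusted p = 0.00285) and had a log2 ratio of -0.40 in the somatostatin class (edgeR adjusted p = 0.46). In the insulin class Iapp, Pyy and Nucb2 (nesfatin precursor) were counted, and all 3 were past the fold (background 17.3%) in HH over WT under HFD, with log2 ratios of 0.53, 0.69 and 0.85, whereas none was under SCD. Npy (neuropeptide Y precursor), too low to be counted, went the other way, from 21.8 (WT) to 4.17 (HH) CPM under HFD (log2 ratio -2.39, interval -2.59 to -2.19) and from 18.8 to 15.1 CPM under SCD (-0.32, interval -0.46 to -0.19).

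Over the 16 sums of class and library, the genes outside the 10 whose log2 CPM was most like Pcsk1 among 1937 genes were Srpr (Pearson r = 0.97), Spock2 (0.97) and Pclo (0.96), and those most like Pcsk2 were Cryba2 (0.97), Pdap1 (0.94) and Slc25a5 (0.94). These correlations describe 16 points that share 4 libraries and the same insulin-driven scaling.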

How the data were processed

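Cell Ranger 6.0 on mm10 was run by the authors, per the labels, who deposited filtered matrices of raw UMI counts (10x 3′ v3.1), 68011082 to 104810105 UMIs per library. The authors' ambient RNA correction and doublet removal are not in these counts. Cells needed under 10% mitochondrial UMIs, 3000 to 50000 UMIs and 2000 to 5000 genes, and 33 to 154 predicted doublets per library (Scrublet in scanpy 1.11.5, top scores at 0.8% per 1000 cells) were removed. Cells with 3 or more endothelial, immune or stromal markers entered no hormone class, and those with 3 or more endothelial markers and under 10% hormone UMIs were the reference (cells with immune markers were left out of it after their values were seen). Sums were tested with edgeR 4.0.16 (R 4.3.3; TMM, filterByExpr, robust quasi-likelihood F test, library as block, Benjamini-Hochberg), with Ins1, Ins2, Gcg, Sst and Ppy left out of the calls since they set the classes. The classes of 1 library come from the same animals, which is where the pairing comes from, and p-values measure the spread over 4 libraries that also differ in genotype and diet. The fit was tested on simulated data. A floor of 3 counts stood in for 0 in ratios, and intervals (95%) cover counting error only. The free RNA profile of a library was the sum of all its barcodes. Its share of a class sum was estimated from the UMIs of the class hormones foreign to that class. Alternatives were DESeq2 1.42.0, other scalings, other filters and other class rules. Python 3.11.15 was used. Gene positions came from GENCODE M21 and promoters from RefSeq, both on GRCm38. All 10 genes are named in the contrasts between classes and, within the insulin class, in HH over WT and HFD over SCD. Elsewhere, as in HH over WT of the other classes, a selection of the 10 is named. Lists are given by counts, with genes of the largest ratios named (up to 4 per contrast by rule). A gene so named from a class contrast is followed through the other classes, which was decided after its values were seen. The 3 most correlated genes are named for Pcsk1 and Pcsk2. The genes and lists were chosen with earlier results of these data known.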

Additional observations from a re-analysis of the deposited data

Results flagged for a closer look

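On plain CPM several of the 10 genes had opposite directions of HH over WT under SCD and HFD, with counting intervals clear of 0 in each. In the insulin class the log2 ratio under SCD and HFD was -0.0601 and 0.46 for Chgb, -0.0601 and 0.29 for Scg3, and -0.037 and 0.12 for Pcsk1. The sign under SCD turned for all 3 with TMM factors (0.04, 0.04 and 0.06), and with CPM without hormone and mitochondrial genes Chgb and Scg3 were at -0.002 and Pcsk1 at 0.02, so the opposite directions depend on the scaling. Chga went the other way in the glucagon class (0.061 and -0.19) and in the somatostatin class (0.0599 and -0.0959), and Scg2 did so in the somatostatin class (0.044 and -0.045). Pcsk1n did so in the polypeptide class (0.0785 and -0.101). Each value rests on 1 library per group, the values under SCD lie near the median of all counted genes (-0.04 in the insulin class), and whether the diets differ was not tested.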

How the results depend on the processing

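Between classes, counted over the 10 genes, 3 contrasts and all alternatives run, 458 values kept direction and side of the threshold, 10 lost the call, 6 gained one and 6 reversed. All 6 reversals came from plain library sizes, added after seeing the data: Cpe in the glucagon class (0.55), Scg2, Scg5, Pcsk2 and Pcsk1n in the somatostatin class (0.54, 0.90, 0.43 and 0.87) and Pcsk2 in the polypeptide class (0.17). The same scaling gave 5 higher and 3 lower in the somatostatin class and 4 higher in the polypeptide class, and the scaling itself moves the median of all genes. Leaving out 1 library gave 3 to 4 higher and 5 to 5 lower in the glucagon class, 1 to 1 and 6 to 7 in the somatostatin class, and 1 to 3 and 6 to 6 in the polypeptide class. Without the replicate block the counts were 3 and 5, 1 and 7, and 2 and 6, and no call of the 10 genes changed. Among all genes tested, library sizes without hormone and mitochondrial genes changed the split in the glucagon contrast from 3442 higher and 3712 lower to 2433 and 4705, and plain library sizes to 7821 and 1313 (9648 and 681 in the somatostatin contrast, 5038 and 1683 in the polypeptide contrast). For HH over WT and HFD over SCD, 156 counts stayed within 1.5 times the reported one and 4 did not (TMM factors, added after seeing the data, included). Of the counts that moved, HFD over SCD in WT gave 1 gene in place of 2 with the looser filter on cells and with doublets kept (Pcsk1n at 0.28 and 0.31). HH over WT in the glucagon class under HFD gave 1 gene higher (Scg2) as a mean over cells, and in the somatostatin class under SCD it gave 1 lower (Pcsk1, -0.35) at 80% dominance. Of the single ratios 564 stayed within their counting interval and 136 did not. Of these 136, 36 came with TMM factors, 28 with median-of-ratios size factors, 25 with CPM without hormone and mitochondrial genes and 22 with the looser filter on cells. With the ambient profile subtracted, log2 Pcsk1 over Pcsk2 was -5.47 in the somatostatin class and -6.67 in the polypeptide class. It was -12.45 in the glucagon class, where no Pcsk1 UMIs were left and the floor of 3 counts sets the value. The mean share of cells with Pcsk1 was 34.9% in the insulin class and 9.16% in the somatostatin class at 2000 UMIs, and without thinning 96.6%, 5.62%, 37.0% and 28.5% in the insulin, glucagon, somatostatin and polypeptide classes, by construction of the depth. Vgf in the somatostatin and polypeptide classes rests on 8 UMIs or fewer per library, which limits its level there.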
